A study of Mus musculus with 8 samples.

Results

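The ATP-binding cassette (ABC) genes of mouse stem cells and blastoids were described here apart from Abca1 and Abcg1, the cholesterol exporters that respond to the nuclear receptor LXR. Members were all symbols of subfamilies ABCA to ABCG with at least 20 counts in at least 1 of 8 libraries. Of 50 such symbols in a table of 24888 genes, 38 were members, 10 stayed under 20 counts everywhere, and the other 2 were Abca1 and Abcg1. The groups held 1 library each and came from E14 mouse embryonic stem cells. Those were embryonic stem cells (ESC), ESC given T0901317 (T09, an LXR agonist) for 3 days, expanded potential stem cells (EPSC) made from ESC over 5 passages, and EPSC given T09 for 3 days. Day 2 blastoids, aggregates that model the blastocyst, were harvested 48 hours after EPSC had been transfected with a non-targeting siRNA (siNT) or an siRNA against Nr1h2 (siNr1h2), the gene of LXR beta. Day 5 blastoids of Type I and Type III were picked by hand, and by their labels both types came from EPSC that had received T09. The labels write the T09 dose as 1 uM/mL, which leaves the concentration unclear. They name no dose or duration of T09 for the blastoids, none in the blastoid medium, and do not define the types.

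ABC proteins use ATP to move molecules across membranes, except those of subfamilies ABCE and ABCF, which lack membrane domains and work at the ribosome. ABCA members mostly move lipids, ABCB and ABCC hold the multidrug exporters, bile transporters and mitochondrial transporters, ABCD serves peroxisomes and lysosomes, and ABCG exports sterols and drugs. Stem cells are known for drug exporters such as Abcg2, and visceral endoderm is known for lipid and lipoprotein transport of a kind later found in liver.

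Total counts ran from 24666260 to 40781415 per library, and 0 counts allowed a level of up to 0.0741 to 0.114 CPM (counts scaled to library size with TMM factors), taken as 3 counts. The reads carry no molecular identifiers and are not independent molecules, and all intervals below cover counting error only. With 1 library per group no difference between 2 libraries has a replicate check, and p-values of the 4-library fit measure only the spread among those libraries. Pluripotency markers (12 genes) summed to between 5594 and 8653 CPM in the stem cell libraries, 3114 and 3032 on day 2, and 1706 and 946 in Type III and Type I. Primitive endoderm markers (14 genes) summed to between 76.9 and 266 CPM in the stem cells, 2913 and 2761 on day 2, and 4982 and 6243 in Type III and Type I. In the stem cells most of that sum was Lrp2, at 59.5 to 217 CPM. Trophectoderm markers (13 genes) summed to between 134 and 224 CPM in the stem cells, 303 and 298 on day 2, and 1676 and 1478 in Type III and Type I. Krt8 and Krt18 made up most of the day 5 sums, at 754 and 648 CPM in Type III and 717 and 553 in Type I. The defining gene Elf5 had 13 and 7 counts in Type III and Type I. Fibroblast markers (8 genes) stayed between 5.47 and 23.1 CPM. Nr1h2, the siRNA target, stood at 53.9 CPM with siNT and 37.7 CPM with siNr1h2, and at 52.6 to 92.0 CPM elsewhere.

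Start-site sequences are shown for the member with the highest level per length (Abce1), the member with the highest day 5 ratio to stem cells (Abcc2), and the neighbouring P-glycoprotein genes Abcb1a and Abcb1b, whose levels parted. They are the 250 bases before an annotated start in RefSeq (build GRCm38.p6), at chr19:43782058-43782307, chr5:8566841-8567090 and chr5:8797897-8798146 on the plus strand and chr8:79711741-79711990 on the minus strand. Each is written 5′ to 3′ with every CpG in capitals.
Abcc2: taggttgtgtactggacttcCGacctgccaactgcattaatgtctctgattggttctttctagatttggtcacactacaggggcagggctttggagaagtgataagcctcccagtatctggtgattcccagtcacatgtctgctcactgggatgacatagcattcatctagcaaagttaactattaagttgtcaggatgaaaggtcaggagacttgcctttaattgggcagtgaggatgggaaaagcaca
Abcb1a: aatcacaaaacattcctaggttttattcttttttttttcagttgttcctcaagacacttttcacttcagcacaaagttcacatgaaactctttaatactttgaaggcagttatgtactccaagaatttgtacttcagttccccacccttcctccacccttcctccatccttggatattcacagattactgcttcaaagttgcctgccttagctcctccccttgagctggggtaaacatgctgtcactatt
Abcb1b: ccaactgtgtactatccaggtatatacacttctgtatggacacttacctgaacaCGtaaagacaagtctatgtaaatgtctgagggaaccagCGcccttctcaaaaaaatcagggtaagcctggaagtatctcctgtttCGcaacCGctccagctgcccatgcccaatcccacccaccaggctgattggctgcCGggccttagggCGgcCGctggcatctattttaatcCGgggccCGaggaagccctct
Abce1: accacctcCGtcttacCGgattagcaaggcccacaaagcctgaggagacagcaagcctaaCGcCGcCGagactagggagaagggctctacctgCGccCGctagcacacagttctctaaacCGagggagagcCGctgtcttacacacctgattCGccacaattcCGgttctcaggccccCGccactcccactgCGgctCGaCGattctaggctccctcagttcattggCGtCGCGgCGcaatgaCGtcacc
The Abcc2 window held 1 CpG at 45.6% GC, 1 copy of AGGTCA (a hexamer bound by nuclear receptors) and 1 of TGACNNNGC (the core of the antioxidant response element). Abcb1a held 0 CpG at 40.4% GC, Abcb1b 9 at 52.8%, and Abce1 20 at 60.4%. Bases just past the Abcb1a start were not found in any GENCODE M21 transcript of that gene, so that start is uncertain. For the other sequences shown they were found.

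Across the family, 29 of 38 members matched a RefSeq window, and 18 of these genes (62.1%) had a CpG-rich one (GC of 50% or more and a CpG ratio, observed over that from base composition, of 0.6 or more). Among all genes with the count minimum the share was 63.1% of 11850. Members counted at 20 or more in all 8 libraries had such a window in 13 of 17 genes, and the other members in 5 of 12. Both strands of the 35 member windows were searched. For 28 of these windows, bases just past the start were found in a GENCODE M21 transcript of the gene. Shares are given against all 32851 windows and then against the 15006 windows of genes with the count minimum. AGGTCA was found in 7 (20.0%, against 14.0% and 11.2%) and TGACNNNGC in 4 (11.4%, against 10.2% and 11.7%). A gene can have several windows, so these are shares of windows and not of genes. Those with AGGTCA belonged to Abcb6, Abcb11, Abcc2, Abcc10 (both its windows) and Abcg2 (2 windows). GGGCGG (the GC box) was found in 18 (51.4%, against 32.7% and 55.8%) and TATAAA in 2 (5.71%, against 12.4% and 6.65%). The LXR-type direct repeat, 2 copies of AGGTCA with 4 free bases between them, was found in 0 member windows and in 5 windows overall (0.015%). The window of Abca1, left out as an LXR-responsive gene, held 0 as well. With exact letters this rare, a count of 0 does not set the members apart. These are matches of letters in short windows and say nothing of binding.

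Summed over members, the ABC signal lay between 1852 and 2232 CPM in every library. Per kilobase of exon, the scale on which genes can be compared, the ribosome-bound members led. Abce1, which splits ribosomes after termination, had a median of 94.7 CPM per kb over libraries, Abcf2 had 92.1 and Abcf1, which acts in translation initiation, 56.6. Other members at lower levels were Abcc5, an exporter of cyclic nucleotides and conjugates, at 20.0, Abcf3 at 15.6, Abcc4, another cyclic nucleotide exporter, at 13.5, Abcd3, a peroxisomal fatty acid importer, at 11.8, and Abcb10, a mitochondrial transporter of haem biology, at 11.6. Abcg2, the drug and porphyrin exporter, had 7.91. The order of Abce1 and Abcf2 changed between libraries, since Abcf2 ranged from 53.7 to 106 CPM per kb and Abce1 from 61.5 to 109.5. ABCE and ABCF together made up 40.6% (Type I) to 56.7% (ESC) of the summed CPM of the members.

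**Figure D1:**
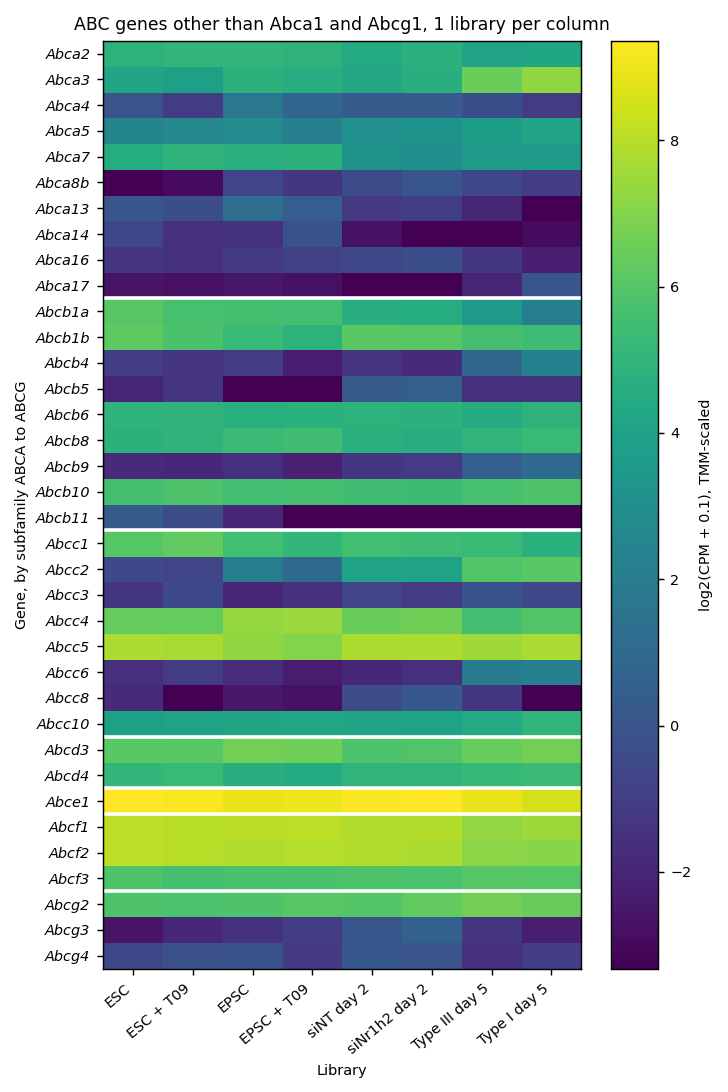
Levels of 36 of the 38 members (rows, by subfamily) in the 8 libraries (columns), as log2 of TMM-scaled CPM plus 0.1, with white lines between subfamilies. Abce1 forms the brightest row in every library. In Type I Abcc5 stood at 218 CPM, above Abcf1 at 181 and Abcf2 at 138. Abcc2 and Abca3 brighten towards the day 5 blastoids on the right, to 69.9 and 151 CPM in Type I.

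Detection split the family. In all 8 libraries 22 members had 20 or more counts, 7 members were at 0 in at least 1 library, and 12 never reached 100 counts. For 13 members the highest library was less than 2-fold above the lowest, among them Abcb6, Abcb8 and Abcb10 and every member of ABCE and ABCF. Among the members with low counts were Abca14, Abca16 and Abca17, rodent genes known from testis, Abcb11, the bile salt export pump, and Abcc8, the sulphonylurea receptor of the pancreatic potassium channel. Among the 10 genes under the minimum, the sterol exporters Abcg5 and Abcg8, known LXR targets of liver and intestine, had at most 4 and 2 counts, T09 libraries included.

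No member passed the test for T09, and few genes of any kind did. Abca1 and Abcg1, left out because they respond to LXR, passed it. With state and T09 as terms of an edgeR quasi-likelihood fit on the 4 stem cell libraries, Abca1 rose by 3.12 on the log2 scale (SE 0.177) and Abcg1 by 4.41 (SE 0.241), each with a Benjamini-Hochberg adjusted p of 7.4e-05. Of 32 members tested in that fit, 0 rose and 0 fell at an adjusted p under 0.05, where 0.0898% of all 14477 genes rose and 0.0138% fell. The smallest adjusted p among members in the edgeR quasi-likelihood fit (Benjamini-Hochberg) was 0.554, and 2 members, Abca4 and Abcb1b, had an unadjusted p under 0.05, as did 879 genes in all. DESeq2 and limma-voom also called 0 members. The median T09 coefficient was -0.03 over members, with 14 above 0 and 18 below. Abca17, Abcb5, Abcb9, Abcc6, Abcc8 and Abcg3 were too low to enter the fit. Primitive endoderm markers were lower with T09 in sum, at 144 against 266 CPM in EPSC and 76.9 against 103 CPM in ESC. Lrp2 made up most of these sums, at 113 against 217 CPM in EPSC and 59.5 against 86.1 in ESC. In the same edgeR fit 0 of 10 were called and 5 had an unadjusted p under 0.05. The part of these markers in the members' values was not tested.

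Among the 22 members with 20 counts in every library the T09 coefficient ran from -0.43 for Abcb1b to 0.23 for Abca7, a phospholipid exporter related to Abca1, with SEs of 0.101 to 0.256. Abca7 stood at 23.3 CPM in ESC and 29.8 with T09, and at 26.4 in EPSC and 28.5 with T09. Abcb1b, a gene of the P-glycoprotein pair, stood at 74.6 CPM in ESC and 52.4 with T09, and at 37.0 in EPSC and 29.2 with T09. Both T09 libraries thus lay below their own untreated library for Abcb1b, and the fitted coefficient of -0.43 had an SE of 0.127. Abca3, the lamellar body lipid transporter of surfactant-producing cells, had 18.2 and 14.9 CPM in ESC without and with T09, and 28.2 and 23.8 in EPSC, with a coefficient of -0.26 (SE 0.139).

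Past the 2-fold rule (at least 2-fold, a 95% counting interval off a ratio of 1, 20 counts in 1 library), the members that differed under T09 were all low in counts. In EPSC 28 members were tested and 1 was higher (0.895% of all genes) and 1 lower (3.29% of all genes). In ESC 28 were tested, 0 were higher (1.39% of all genes) and 1 was lower (2.53% of all genes). The higher one was Abca14, a rodent gene known from testis, with 33 counts in T09-treated EPSC and 10 in EPSC, a log2 ratio of 1.47 (95% interval 0.58 to 2.82). Abca14 reached 20 counts in T09-treated EPSC alone, so its higher level there follows from the selection. In ESC the same gene had 8 counts with T09 and 18 without. Abcg4, a relative of Abcg1 known from brain, had 14 counts with T09 and 31 without in EPSC (log2 ratio -1.12, -2.26 to -0.28), but 28 with and 19 without in ESC. Abca4, the retinoid lipid flippase of photoreceptors, had 13 counts with T09 and 28 without in ESC (log2 ratio -1.10, -2.29 to -0.22), and 67 with and 123 without in EPSC. For Abca4 both pairs of libraries pointed down, with a fitted T09 coefficient of -1.06 (SE 0.397) that missed the threshold.

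**Figure D2:**
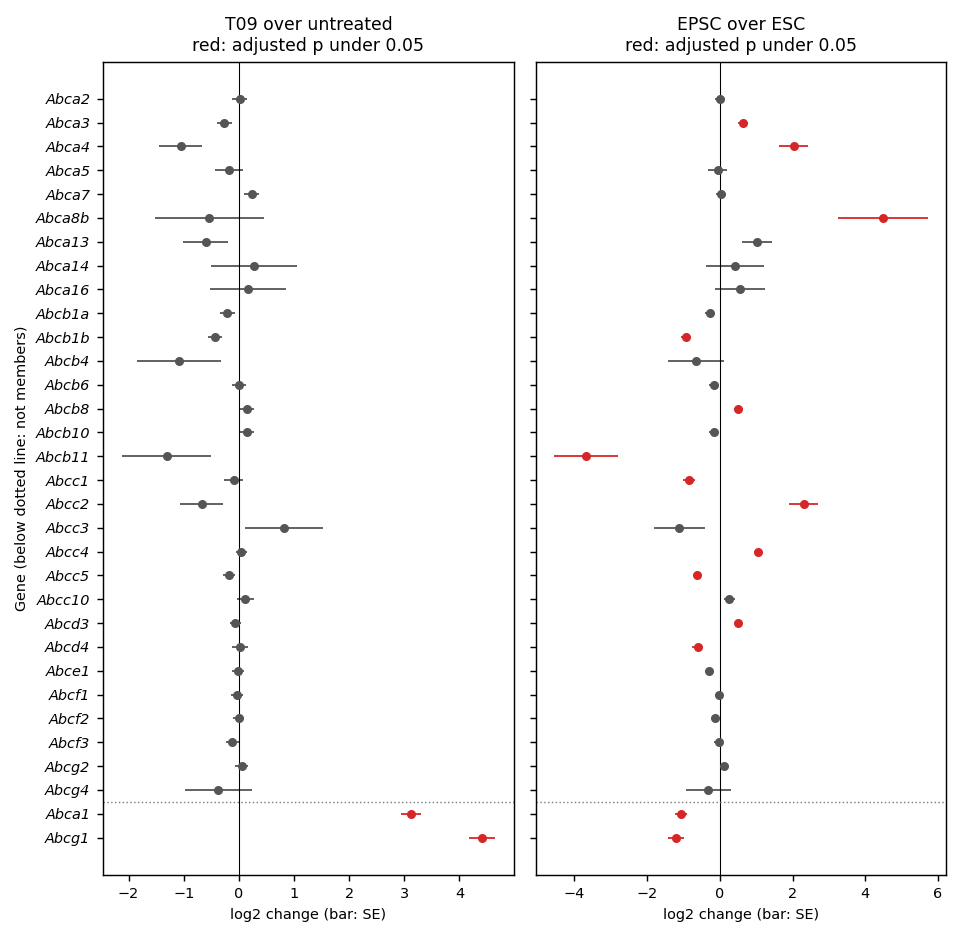
Coefficients of the edgeR fit for 30 of the 32 members that entered it, with Abca1 and Abcg1 below the dotted line for reference; points are log2 changes, bars are 1 SE, and red marks an adjusted p under 0.05. In the T09 panel no member is red while Abca1 and Abcg1 lie at 3.12 and 4.41, and in the state panel 12 members are red, from Abcb11 at -3.68 to Abca8b at 4.48.

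Between ESC and EPSC, members changed in both directions. Of 32 members tested in the edgeR fit, 7 rose in EPSC (14.3% of all genes rose) and 5 fell (14.5% of all genes fell). Abcc4 and Abcc2 were among those that rose and Abcc1, Abcc5 and Abcb1b among those that fell, while the exporters Abcb1a, Abcc3, Abcc10 and Abcg2 did not pass. The share of members called, in either direction, was near that of all genes, and the median coefficient over members was -0.02. Primitive endoderm markers were higher in EPSC too, summing to 266 and 144 CPM without and with T09 against 103 and 76.9 in ESC. Lrp2 made up most of each sum. In the same fit 6 of 10 tested rose and 1 fell. Pluripotency markers mostly went the other way, with 1 of 12 rising and 8 falling. So did trophectoderm markers, with 2 of 10 rising and 7 falling. The part of these markers in the result was not tested. In bulk libraries more cells of a type and more RNA per cell cannot be told apart.

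Abcc4, which exports cyclic nucleotides, prostanoids and nucleotide drugs, was at 81.6 CPM in ESC, 82.6 in ESC with T09, 166 in EPSC and 175 in EPSC with T09. The EPSC libraries were both higher and the pairs did not overlap. Abcc4 rose by 1.04 on the log2 scale (SE 0.102, edgeR quasi-likelihood, Benjamini-Hochberg adjusted p = 9.03e-05). Abcc2, the apical exporter of bilirubin glucuronide and glutathione conjugates, had 20 and 19 counts in ESC without and with T09 and 151 and 81 in EPSC, or 0.603, 0.530, 3.95 and 2.00 CPM. Both EPSC libraries were higher, and Abcc2 rose by 2.31 (SE 0.402, edgeR quasi-likelihood, Benjamini-Hochberg adjusted p = 0.00248).

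Abcc5 moved the other way, from 226 and 210.5 CPM in ESC without and with T09 to 155 and 131 in EPSC. It fell by 0.63 on the log2 scale (SE 0.103, edgeR quasi-likelihood, Benjamini-Hochberg adjusted p = 0.00173). Abcc1, the broad exporter of glutathione conjugates such as leukotriene C4, was at 64.0 and 76.8 CPM in ESC without and with T09 and at 45.8 and 33.4 in EPSC. Abcc1 fell by 0.85 (SE 0.169, edgeR quasi-likelihood, Benjamini-Hochberg adjusted p = 0.00492). Its 2-library difference was 2-fold only with T09, at a log2 ratio of -1.20 (-1.30 to -1.11) against -0.48 (-0.57 to -0.39) without, and whether the gap between states depended on T09 was not tested. Abcc10, a drug exporter of the same subfamily, had an edgeR coefficient of 0.27 (SE 0.152) that missed the threshold.

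Of the P-glycoprotein pair, which pumps drugs and other hydrophobic compounds out of cells, only Abcb1b passed the test between states. It fell by 0.94 (SE 0.128, edgeR quasi-likelihood, Benjamini-Hochberg adjusted p = 0.000622), from 74.6 and 52.4 CPM in ESC to 37.0 and 29.2 in EPSC. Abcb1a was at 66.6 and 51.7 CPM in ESC and 49.5 and 48.0 in EPSC, with a coefficient of -0.28 (SE 0.131). The difference between the 2 genes was not itself tested. Abcg2, a marker of drug-effluxing stem cells, was at 58.1 and 54.7 CPM in ESC and 58.1 and 66.1 in EPSC, with a coefficient of 0.12 (SE 0.124).

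The ABCA members that changed between states, Abca3, Abca4 and Abca8b, all rose. Abca3 rose by 0.64 (SE 0.140, edgeR quasi-likelihood, Benjamini-Hochberg adjusted p = 0.00773). Abca4 had 28 and 13 counts in ESC and 123 and 67 in EPSC, and rose by 2.03 (SE 0.404, adjusted p = 0.00506 in the same edgeR fit). Abca8b, for which reads may be shared with its neighbour and close paralogue Abca8a, had 0 and 1 counts in ESC and 20 and 12 in EPSC and rose (adjusted p = 0.0232 in the same edgeR fit), while DESeq2 gave no adjusted p for it. Against the floor of 3 counts in untreated ESC, Abca8b was at least 5.79-fold higher in untreated EPSC. Abca13 had 31 and 26 counts in ESC and 85 and 52 in EPSC, with an adjusted p of 0.0934 in that edgeR fit.

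The organelle members Abcd3, Abcd4 and Abcb8 changed by smaller steps. Abcd3, the abundant peroxisomal importer, was at 69.2 and 67.3 CPM in ESC and 100.3 and 94.6 in EPSC, and rose by 0.50 (SE 0.106, edgeR quasi-likelihood, Benjamini-Hochberg adjusted p = 0.00667). Abcd4, which brings cobalamin out of lysosomes, was at 33.2 and 37.5 CPM in ESC and 24.5 and 22.2 in EPSC, and fell by 0.61 (SE 0.142, adjusted p = 0.0108 in the same edgeR fit). Abcb8 of the inner mitochondrial membrane was at 28.3 and 30.5 CPM in ESC and 39.7 and 44.7 in EPSC, and rose by 0.51 (SE 0.131, adjusted p = 0.0174 in the same edgeR fit). The largest fall among members was that of Abcb11, the bile salt export pump and not an organelle member. It had 38 and 24 counts in ESC and 6 and 0 in EPSC, and fell by 3.68 (SE 0.872, adjusted p = 0.0118 in the same edgeR fit). Abcb11 was at 0 counts in all 4 blastoid libraries as well. It reached 20 counts in the ESC libraries alone, so its lower levels elsewhere follow from the selection. Abce1 fell short of the threshold, with a coefficient of -0.31 and an adjusted p of 0.0585 in the edgeR fit. This depended on the method. The adjusted p was 0.0487 in the edgeR fit without the filter and 0.0429 with limma-voom. It was 0.0562 in the edgeR fit with RLE scaling and 0.0638 with DESeq2.

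The 2-library comparisons of EPSC with ESC gave 5 members higher (9.58% of all genes) and 2 lower (8.05% of all genes) of 28 without T09. With T09 they gave 4 higher (8.35% of all genes) and 4 lower (9.79% of all genes) of 29. Abca4, Abcc2 and Abcc4 were past the rule upward in each pair, and Abcb11 downward in each.

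No member passed 2-fold between siNr1h2 and siNT on day 2. Nr1h2 itself was lower by a log2 ratio of -0.51 (-0.62 to -0.40) in the siNr1h2 library. Of 31 members tested, 0 were higher (1.49% of all genes) and 0 lower (2.17% of all genes), and 28 of 31 lay within 0.5 of 0 on the log2 scale. Abcb8 stood at 24.2 CPM with siNr1h2 and 27.6 with siNT, a log2 ratio of -0.19 (-0.34 to -0.05). Abcg2 stood at 78.9 CPM with siNr1h2 and 62.9 with siNT, a log2 ratio of 0.33 (0.24 to 0.41). Abca1 itself had a log2 ratio of 0.57 (0.22 to 0.93) and Abcg1 one of 0.13 (-0.28 to 0.55). These are single libraries, so no rate of false calls can be given.

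In day 2 blastoids of the siNT arm, set against EPSC, the members that were higher came from ABCB, ABCC and ABCG, and those that were lower from ABCA and ABCB. Of 32 members tested, 5 were higher (14.5% of all genes) and 4 lower (11.3% of all genes). Among the higher ones, Abcb5, Abcc8 and Abcg3 reached 20 counts only in the day 2 libraries, so their higher levels there follow from the selection. Abcc2 stood at 16.7 CPM with siNT and 15.7 with siNr1h2, against 3.95 in EPSC, a log2 ratio of 2.07 (1.82 to 2.34) for siNT. Abcb5, a drug exporter known from melanoma and limbal stem cells, had 44 counts with siNT and 35 with siNr1h2 but 0 in either EPSC library, and was at least 14.2-fold higher with siNT than in EPSC. Abcc8 had 26 and 27 counts on day 2 and 3 in EPSC, and Kcnj11, its channel partner and neighbour in the genome, had 23 with siNT, 9 with siNr1h2 and 6 in EPSC. Abcg3, a rodent relative of Abcg2, had 38 counts in each day 2 library and 10 in EPSC.

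Lower on day 2 were Abca7, Abca13, Abca4 and Abcb1a. Abca7 stood at 8.71 CPM with siNT and 7.89 with siNr1h2 against 26.4 in EPSC, a log2 ratio of -1.59 (-1.78 to -1.42) for siNT. The 2 day 2 libraries had the lowest Abca7 levels of all 8. Abcb1a was at 24.3 and 22.8 CPM on day 2 against 49.5 in EPSC (log2 ratio -1.02, -1.14 to -0.91), a value that dropped just under 2-fold under other scalings. Abcb1b went the other way, at 70.0 and 67.7 CPM on day 2 against 37.0 in EPSC (0.92, 0.83 to 1.01). In the same comparison all 14 primitive endoderm markers were higher with siNT than in EPSC, 5 of 12 pluripotency markers were lower and 8 of 12 tested trophectoderm markers were higher; their part in the result was not tested.

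On day 5 the highest ratios to T09-treated EPSC belonged to Abcc2, Abcb4 and Abcc6. Abcb4, Abcc6 and Abcb9 reached 20 counts only in the day 5 libraries, and Abca17 only in Type I. They are members through those libraries, so their higher levels there follow from the selection. The counts of members below include them. The bile salt pump Abcb11 had 0 counts in both day 5 libraries, and the sterol transporters Abcg5 and Abcg8, which are not members, had at most 4 and 2. Against T09-treated EPSC, Type I blastoids had 8 of 31 members higher (22.7% of all genes) and 6 lower (18.1% of all genes). Type III blastoids had 7 of 30 higher (21.7% of all genes) and 6 lower (16.0% of all genes). The medians of the log2 ratios were 0.16 and 0.02, against -0.03 and 0.00 over all genes, and the shares of members called were near those of genes in general. Both comparisons share the T09-treated EPSC library, so their likeness is in part built in and their values are given side by side. All 14 primitive endoderm markers were higher in each. Of 12 tested trophectoderm markers 8 were higher in each and 1 was lower, Tfap2c, at 19.5 CPM in Type I and 28.1 in Type III against 104. Of 12 pluripotency markers 9 (Type I) or 8 (Type III) were lower. The part of these markers in the result was not tested.

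Abcc2 was at 69.9 CPM in Type I and 60.2 in Type III against 2.00 in T09-treated EPSC, with log2 ratios of 5.09 (4.81 to 5.46) and 4.87 (4.59 to 5.25). Every blastoid library was above every stem cell library for Abcc2, and day 5 was above day 2. By their labels the day 2 libraries were transfected with siRNA and the day 5 ones came from T09-treated EPSC. Here and below, day cannot be told apart from these differences. Abcb4, which flips phosphatidylcholine into bile, had 167 counts in Type I and 60 in Type III against 4, with log2 ratios of 4.96 (4.17 to 7.45) and 3.62 (2.78 to 6.13). Abcc6, a liver transporter that drives ATP release and prevents ectopic calcification, had 156 and 114 counts against 4, with ratios of 4.86 (4.07 to 7.35) and 4.52 (3.74 to 7.03). Neither Abcb4 nor Abcc6 exceeded 14 counts in any stem cell or day 2 library.

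Abca3, Abca5 and Abcb9 were also higher, and Abca2, another lysosomal member, stood at 18.3 CPM in Type I and 16.6 in Type III against 30.0 in T09-treated EPSC, log2 ratios of -0.71 and -0.85 that did not pass 2-fold. Abca3 stood at 151 CPM in Type I and 90.8 in Type III against 23.8 in T09-treated EPSC, with log2 ratios of 2.66 (2.56 to 2.76) and 1.93 (1.82 to 2.04). Abca3 lay between 14.9 and 28.2 CPM in every other library. In GENCODE M21 D330041H03Rik overlaps 9.75% of the Abca3 exon bases on the opposite strand, and it had at most 111 counts. Abca5, a lysosomal member, was at 17.1 and 13.5 CPM against 4.55 (1.90, 1.67 to 2.16, and 1.56, 1.32 to 1.82). Abcb9, a lysosomal peptide transporter, had 75 and 42 counts against 5. Abca17, a neighbour of Abca3 on the opposite strand, had 34 counts in Type I, 5 in Type III and 2 in T09-treated EPSC. The Type I ratio to T09-treated EPSC for Abca17, 3.30 on the log2 scale (2.30 to 7.36), rests on those few counts.

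**Figure D3:**
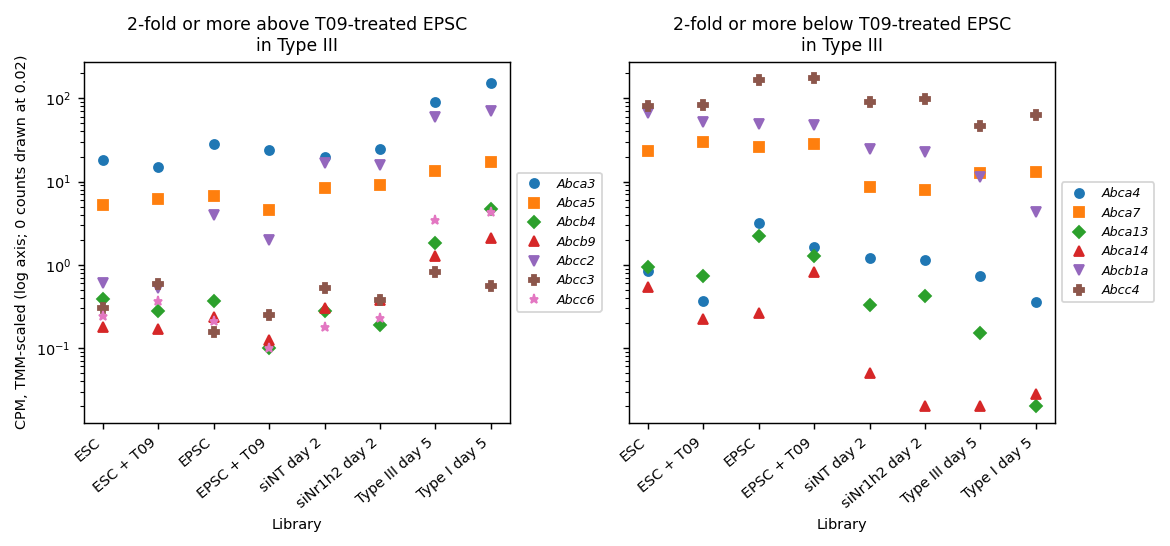
TMM-scaled CPM (log axis) in each of the 8 libraries for the members past the 2-fold rule between Type III blastoids and T09-treated EPSC, higher on the left and lower on the right; each point is 1 library and 0 counts are drawn at the bottom. Abcc2 steps from 0.603 CPM in ESC to 69.9 in Type I, while Abcb1a goes from 66.6 to 4.32.

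Lower on day 5 were the P-glycoprotein gene Abcb1a, the exporter Abcc4 and several ABCA members. Abcb1a was at 4.32 CPM in Type I and 11.3 in Type III against 48.0 in T09-treated EPSC, with log2 ratios of -3.46 (-3.72 to -3.24) and -2.08 (-2.25 to -1.92). Abcc4 was at 62.5 and 46.9 CPM against 175, with ratios of -1.48 (-1.55 to -1.41) and -1.90 (-1.98 to -1.82). Abcc4 was thus highest in the EPSC libraries and lower in both its ESC source and its blastoid derivatives. Abca7 was at 12.9 and 12.6 CPM against 28.5, above the day 2 values and below every stem cell library.

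Among rare transcripts, Abca13 had 0 counts in Type I and 5 in Type III against 52, so that it was at least 15.4-fold lower in Type I. Abca14 had 1 count in Type I and 0 in Type III against 33, and was at least 8.93-fold lower in Type III. Its membership rests on those 33 counts, so these lower levels follow from the selection too. Abca4 had 13 and 24 counts against 67. Abcc3, the basolateral relative of Abcc2, had 20 and 27 counts against 10, with the Type I interval (0.01 to 2.43) reaching almost to 0.

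The ribosome-bound members did not pass 2-fold in any comparison, and Abce1, Abcf1 and Abcf2 were lower in both day 5 libraries. Abce1 was at 369 CPM in Type I and 503 in Type III against 527 in T09-treated EPSC (log2 ratios -0.51, -0.54 to -0.48, and -0.07, -0.09 to -0.04). Abcf1 was at 181 and 156 CPM against 271, and Abcf2 at 138 and 144 against 248. Abcf3 was on the other side, at 65.0 and 66.0 CPM against 52.7. Of 15 translation partners fixed as a list, Eif2s2 alone passed 2-fold in Type I, downward, and 0 did in Type III.

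Abcb1a and Abcb1b, which lie next to each other on chromosome 5 and encode closely related proteins, took changing shares of their summed counts. The Abcb1a share was 47.2% in ESC (Wilson 95% interval 45.7 to 48.6), 49.7% in ESC with T09 (48.1 to 51.3), 57.2% in EPSC (55.5 to 58.9) and 62.2% in EPSC with T09 (60.4 to 63.8). It was 25.8% with siNT (24.4 to 27.2), 25.2% with siNr1h2 (23.5 to 27.0), 18.8% in Type III (17.2 to 20.6) and 9.05% in Type I (7.79 to 10.5). The 4 stem cell libraries all lay above the 4 blastoid libraries. The summed level of the pair was highest in ESC at 141 CPM and lowest in Type I at 47.7, with 94.3 and 90.5 CPM on day 2. How reads common to both genes were divided is not given in the sources used here, so the sizes of these shares are uncertain. The next gene on the chromosome, Abcb4, was highest where Abcb1a was lowest, at 4.65 CPM in Type I.

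**Figure D4:**
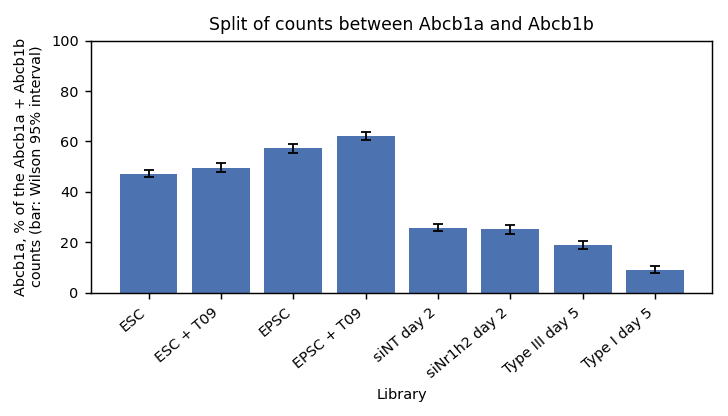
Share of the summed Abcb1a and Abcb1b counts that fell on Abcb1a, in percent, in each of the 8 libraries; bars show the share and whiskers the Wilson 95% interval. The stem cell libraries sit between 47.2% and 62.2% and the blastoids between 9.05% and 25.8%.

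Between Type I and Type III blastoids 3 members passed the 2-fold rule, not a smaller share than among all genes. Of 29 tested, 2 were higher in Type I (1.93% of all genes) and 1 lower (5.75% of all genes), with a median log2 ratio of 0.20 over members and 0.01 over all genes. The higher ones were Abcb4, with 167 counts against 60 (1.32, 0.92 to 1.80), and Abca17, with 34 against 5 (2.26, 1.28 to 4.35). Abca17 reached 20 counts in Type I alone, so its higher level there follows from the selection. The lower one was Abcb1a, with 155 counts against 372 (-1.38, -1.67 to -1.12). Under 2-fold but off a ratio of 1 were Abca3 at 0.73 (0.67 to 0.80), Abcc10 at 0.53 (0.39 to 0.67), Abcb6 at 0.45 (0.32 to 0.59), Abcc1 at -0.53 (-0.66 to -0.41) and Abce1 at -0.45 (-0.48 to -0.41). By comparison Abca1 stood at 207 CPM in Type I and 5.38 in Type III, and Abcg1 at 18.7 and 1.61. Pluripotency markers were lower in Type I for 8 of 12 genes, 0 of 14 primitive endoderm markers passed 2-fold, and 3 of 12 trophectoderm markers were lower; their part in these differences was not tested.

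**Figure D5:**
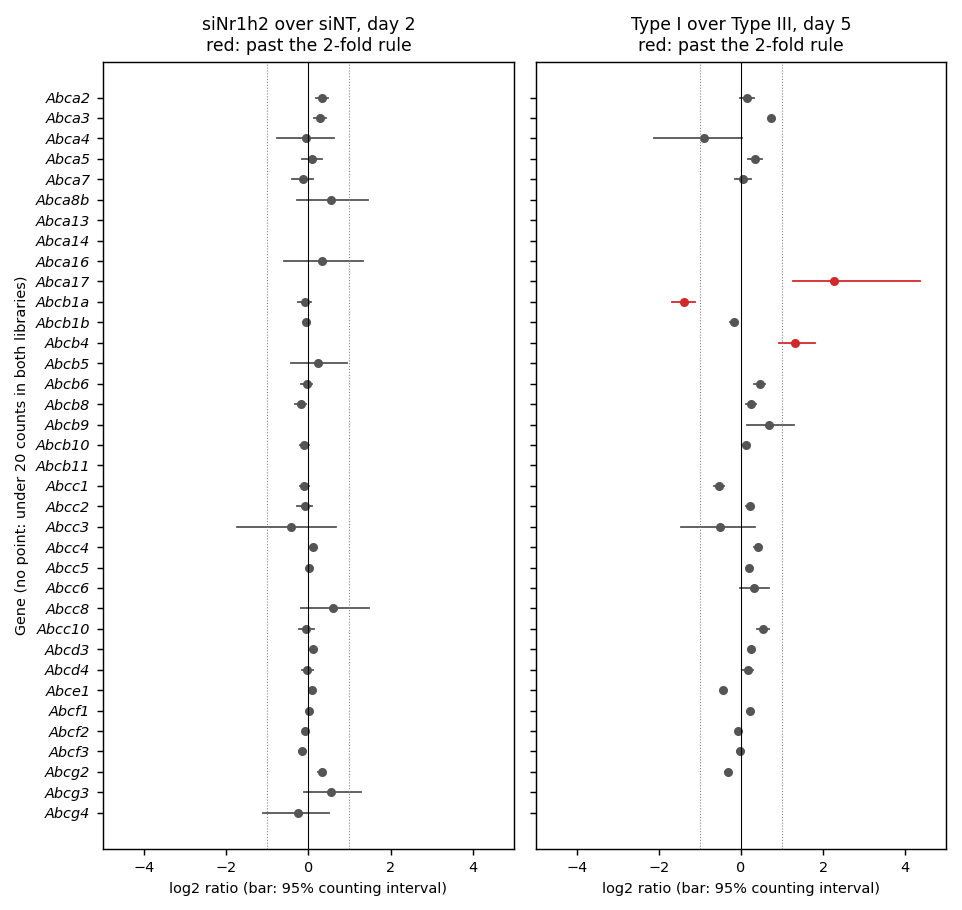
Log2 ratios of siNr1h2 over siNT on day 2 (left) and of Type I over Type III on day 5 (right) for members with 20 counts in at least 1 of the 2 libraries; bars are 95% counting intervals, dotted lines mark 2-fold and red marks members past the rule. No member is red on the left, and Abca17, Abcb4 and Abcb1a are red on the right at 2.26, 1.32 and -1.38.

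Genes that work with the members were counted from lists named by the members' roles. With T09 the edgeR fit called 0 genes of these lists, apart from 4 of 6 reference LXR targets (Abca1, Abcg1, Srebf1 and Mylip). Between ESC and EPSC 6 of 11 NRF2 targets fell and 0 rose, where 14.5% of all genes fell. Of these the malic enzyme Me1 fell by 1.41 (SE 0.113, edgeR quasi-likelihood, Benjamini-Hochberg adjusted p = 2.7e-05). Of 18 glutathione genes 5 fell and 1 rose. The other lists between states had 2 rising and 2 falling of 12 for haem synthesis, 0 and 1 of 17 for iron-sulphur assembly, 3 and 2 of 16 for peroxisome biogenesis and 3 and 3 of 15 for peroxisomal beta oxidation. They had 2 and 0 of 9 for cobalamin, 0 and 3 of 15 for translation partners, 0 and 1 of 10 for xenobiotic metabolism, 2 and 3 of 19 for sphingolipid and phosphatidylcholine enzymes, 0 and 2 of 16 for other lipid floppases, and 1 and 1 of 6 for peptide loading.

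On day 5, the measure for these lists was the 22.7% higher and 18.1% lower of all genes in Type I and the 21.7% and 16.0% in Type III. Among glutathione enzymes, which make the conjugates carried by Abcc1 and Abcc2, 9 of 19 were higher and 3 lower in Type I, and 10 and 3 of 19 in Type III, with medians of 0.77 and 1.00 on the log2 scale. The summed level of the 22 listed genes was lower all the same, at 660 CPM in Type I and 707 in Type III against 874 in T09-treated EPSC. Gsta4, the listed gene with the most CPM in T09-treated EPSC, was at 72.3 and 112 CPM against 334. Ggt1, which cleaves extracellular glutathione, was at 18.2 and 19.0 CPM in Type I and Type III against 2.69, and Mgst1, a microsomal transferase, had 102 and 149 counts against 11. Gstp2, a cytosolic transferase, was at 1.28 and 3.25 CPM against 31.7. Among xenobiotic receptors and enzymes 5 of 12 were higher and 1 lower in Type I, and 3 and 1 of 9 in Type III, with the dioxin receptor Ahr at 14.3 and 12.4 CPM against 3.09. NRF2 targets split evenly, 2 higher and 2 lower of 11 in each, with Me1 at 443 and 369 CPM against 44.3 and Nqo1, a quinone reductase, at 7.55 and 12.3 against 35.6.

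For the peptide carriers, Tap1 and Tap2 belong to the ABC superfamily but fall outside the symbol pattern. Tap1 was at 19.0 CPM in Type I and 15.9 in Type III against 2.42 in T09-treated EPSC. Tap2 had 56 and 127 counts against 3, and their partner B2m, the light chain of class I molecules, was at 171 and 170.2 CPM against 17.1. In the list of the peptide loading complex, 3 of 6 genes were higher in Type I and 4 of 7 in Type III, with 0 lower in each.

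On day 5, against T09-treated EPSC, few genes of iron-sulphur assembly or haem synthesis passed 2-fold. Of 17 iron-sulphur assembly genes 0 were higher and 2 lower (Nubp2 and Nfu1) in Type I, and 0 and 1 (Nubp2) in Type III. Of 12 haem synthesis genes 2, Cpox and Fech, were higher in each day 5 library, at 116 and 71.5 CPM in Type I against 44.1 and 28.3. Abcb10 was at 55.9 CPM in Type I and 51.3 in Type III against 49.7, and Abcb6, linked to porphyrin transport, at 30.8 and 22.5 against 27.5. Another GENCODE M21 gene, Gm29253, overlaps 55.2% of the Abcb6 exon bases on the same strand, so reads of these genes cannot be told apart.

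Peroxisomal and cobalamin partners were mixed. Of 16 peroxisome biogenesis genes 3 were higher in Type I and 2 in Type III, Pex2 and Pex11g in both, and 0 were lower. Of 15 genes of peroxisomal beta oxidation 2 were higher and 1 lower in Type I, and 2 and 2 in Type III, with the acyl-CoA synthetase Slc27a2 at 37 and 42 counts against 462. Abcd3 stood at 102 CPM in Type I and 86.4 in Type III against 94.6. Of 9 cobalamin genes 2 were higher in each, the carrier Tcn2 at 219 and 159.6 CPM against 24.6 and Lmbrd1, the lysosomal partner of Abcd4, at 56.6 and 59.7 against 13.0. Abcd4 itself was at 40.3 and 35.8 CPM against 22.2, log2 ratios of 0.86 (0.74 to 0.98) and 0.69 (0.56 to 0.82).

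Among lipid enzymes and carriers outside the family, 4 of 20 sphingolipid and phosphatidylcholine genes were higher and 1 lower in Type I, and 2 and 1 of 19 in Type III. The ceramide synthase Cers6 was at 84.1 and 54.2 CPM in Type I and Type III against 20.0 in T09-treated EPSC. Of 17 lipid floppases and flippases other than ABC proteins, 5 were higher and 1 lower in Type I, and 4 and 0 in Type III. Spns2, a sphingosine phosphate exporter, was at 46.1 and 27.0 CPM against 1.24.

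Across all 9 comparisons 22 members passed the 2-fold rule at least once and 16 never did. Abca4 passed it in 6 comparisons. The 16 that never did include Abca2, a lysosomal lipid transporter of the nervous system that ranged from 16.6 to 32.3 CPM, Abcg2 (54.7 to 105 CPM), Abcc5 (131 to 226 CPM), Abcd3, Abcd4 and every member of ABCE and ABCF.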

How the data were processed

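The authors deposited raw counts per gene symbol for 8 libraries, whole numbers with 0 columns left without a sample. Per the labels' protocols a directional kit was used. The submitters' processing notes name STAR, HTSeq, Cuffnorm and mm9. Their roles and versions, the annotation and the strand setting are not given in the sources used here, so overlapping genes and close paralogues may share reads. Counts were scaled by TMM (edgeR 4.0.16, R 4.3.3). For 9 comparisons of 2 libraries, log2 ratios (prior count 2) were given 95% exact conditional (Clopper-Pearson) intervals. A call needed a 2-fold ratio, an interval off 1 and 20 counts in a library. The 4 stem cell libraries were fitted with edgeR's quasi-likelihood model, with state and T09 as terms (filterByExpr, 1 residual degree of freedom, Benjamini-Hochberg threshold 0.05 over all genes). The code was tested on simulated data. Folds against 0 counts use a floor of 3. Lengths are exon unions (GENCODE M21, GRCm38). Values in every library are given for members called in the fit and for up to 5 members per direction and comparison with the furthest interval bound. List genes, up to 3 per list, were chosen likewise. The members, lists and rules were chosen with earlier results of these data known. Single values of 2 members are not reported here. Alternatives were RLE or library-total scaling, no filter or minimum, a 1.5-fold threshold, a prior count of 0.5, DESeq2 1.42.0 and limma-voom (limma 3.58.1).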

Additional observations from a re-analysis of the deposited data

Results flagged for a closer look

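Of 26 members tested for T09 in both states, 5 had log2 ratios of opposite sign in EPSC and ESC with both counting intervals off a ratio of 1. Abcc1 had -0.46 in EPSC and 0.26 in ESC. Abcd4 had -0.14 in EPSC and 0.18 in ESC. Of the ribosome-bound members 3 had the opposite pattern at small size, Abce1 with 0.06 and -0.10, Abcf1 with 0.05 and -0.12, and Abcf2 with 0.08 and -0.09. Abcf3 had -0.0046 and -0.23. The difference between states was not tested, because each value rests on a single pair of libraries and the intervals cover counting error only.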

How the results depend on the processing

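The fit called 0 members for T09 under RLE scaling, without the filter, with DESeq2 and with limma-voom, and its 12 members called for state stayed within 1.5 times in these 4 alternatives. Counts from 2 libraries moved more where they were small. For T09 in EPSC the count of 2 became 4 without the count minimum and 5 at 1.5-fold. For T09 in ESC the count of 1 became 3 without the minimum. For EPSC over ESC with T09 the count of 8 became 13 at 1.5-fold. For Type I over Type III the count of 3 became 5 without the minimum and 5 at 1.5-fold. For Type III over T09-treated EPSC the count of 13 became 20 at 1.5-fold. Of 171 single-member values from 2 libraries, 167 kept their side of the rule and 4 did not: Abcb1b between EPSC and ESC without T09 (-0.98 with library totals), Abcb1a between siNT and EPSC (-0.99 with RLE, -0.93 with totals) and Abcc3 between Type I and T09-treated EPSC (0.99 with totals). For the members called in the fit, all 47 single values that had an adjusted p kept their side, and for Abca8b DESeq2 gave none. Abce1, not called for state in the fit, passed without the filter and with limma-voom. No direction turned. Scaling moved all genes by under 0.1 on the log2 scale. Leaving out a library was not run, since each group has 1. Depth limits the 12 members under 100 counts most.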
